A study of Rattus norvegicus with 31 samples.

Results

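Livers of 8 rats that received the same dose of thiacloprid (THI) with a different second pesticide were compared directly. In 4 of them the partner was clothianidin (CTD) and in 4 it was imazalil (IMZ), out of 31 livers sequenced in all, and the comparison was made over 19904 genes. All rats were female Wistar (Crl:WI), dosed by gavage for 28 days with 7.5 ml/kg of a 0.5% carboxymethyl-cellulose vehicle. THI was given at 54 mg/kg body weight per day in both groups, together with CTD at 134 or IMZ at 46 mg/kg body weight per day. Reference groups were 8 vehicle controls, 3 rats on CTD alone at 288 mg/kg bw/day and 4 rats on IMZ alone at 93 mg/kg bw/day. The paper marks the group on CTD alone for killing in moribund condition, so its 3 livers come from the rats that remained. The partner doses were set by the study to be equipotent and were not equal in mass, so the compound and its dose cannot be told apart in any difference below. The question put to the data was which liver transcripts depended on the partner of THI and which did not.

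THI and CTD are neonicotinoids, insecticides that act on nicotinic acetylcholine receptors of insects. IMZ is an imidazole fungicide that blocks a cytochrome P450 of fungal sterol synthesis. In rat liver, many xenobiotics act through the nuclear receptors CAR and PXR, which drive cytochromes P450 of the Cyp2b and Cyp3a families, conjugating enzymes and transporters, and CAR activation in rodents is also known for hepatocyte division.

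Total RNA was sequenced after ribosomal RNA was removed, and values are given as CPM, a gene's counts relative to the normalized total of its library. Library totals ran from 35.78 to 47.1 M counts in the THI + CTD livers and from 40.04 to 45.71 M counts in the THI + IMZ livers, and mitochondrial transcripts took 1.335% to 1.568% and 1.262% to 1.85% of them. Over the 11297 genes with a mean log2 CPM above 0, the root mean square log2 difference between livers had a median of 0.419 within THI + CTD (6 pairs), 0.462 within THI + IMZ (6 pairs) and 0.489 between the groups (16 pairs). 2 THI + IMZ livers were no closer to their own group than to the other. The mean distance of replicate 4 was 0.513 to the other THI + IMZ livers and 0.469 to the THI + CTD livers, and that of replicate 1 was 0.5 to both. Calls that change without either of them are given below. The labels name no batch, so none could be used.

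Replacing IMZ by CTD gave 34 differentially expressed genes (DEGs, adjusted p under 0.05 in edgeR's quasi-likelihood test), which is 0.171% of the genes tested. Of these, 13 were higher in THI + CTD (0.0653% of all genes) and 21 were lower (0.106%). Without adjustment, 2014 genes (10.1%) had a p under 0.05, of which 985 were higher (4.95%) and 1029 lower (5.17%). In 30 of the 34 DEGs the 4 livers of one mixture all lay beyond the 4 of the other, 12 of them higher and 18 lower. This held for 4.12% of all genes (2.09% higher and 2.03% lower), and the groups overlapped for Tec, Kank2, Krt23 and the unnamed gene ENSRNOG00000037549. The DEGs were selected for a small p in these livers, so their separation is a description only. The median log2-fold change of the DEGs in absolute size was 0.80. The count depended on single livers. It was 0 without THI + IMZ replicate 3 (1652 genes at an unadjusted p under 0.05) and 109 without THI + IMZ replicate 4, and without THI + CTD replicates 1, 2, 3 and 4 it was 16, 7, 2 and 31. Without THI + IMZ replicates 1 and 2 it was 60 and 9. All 34 DEGs kept their direction and an unadjusted p under 0.05 in each of these fits. They were selected for a small p in the same livers, so this is not independent evidence.

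**Figure D1:**
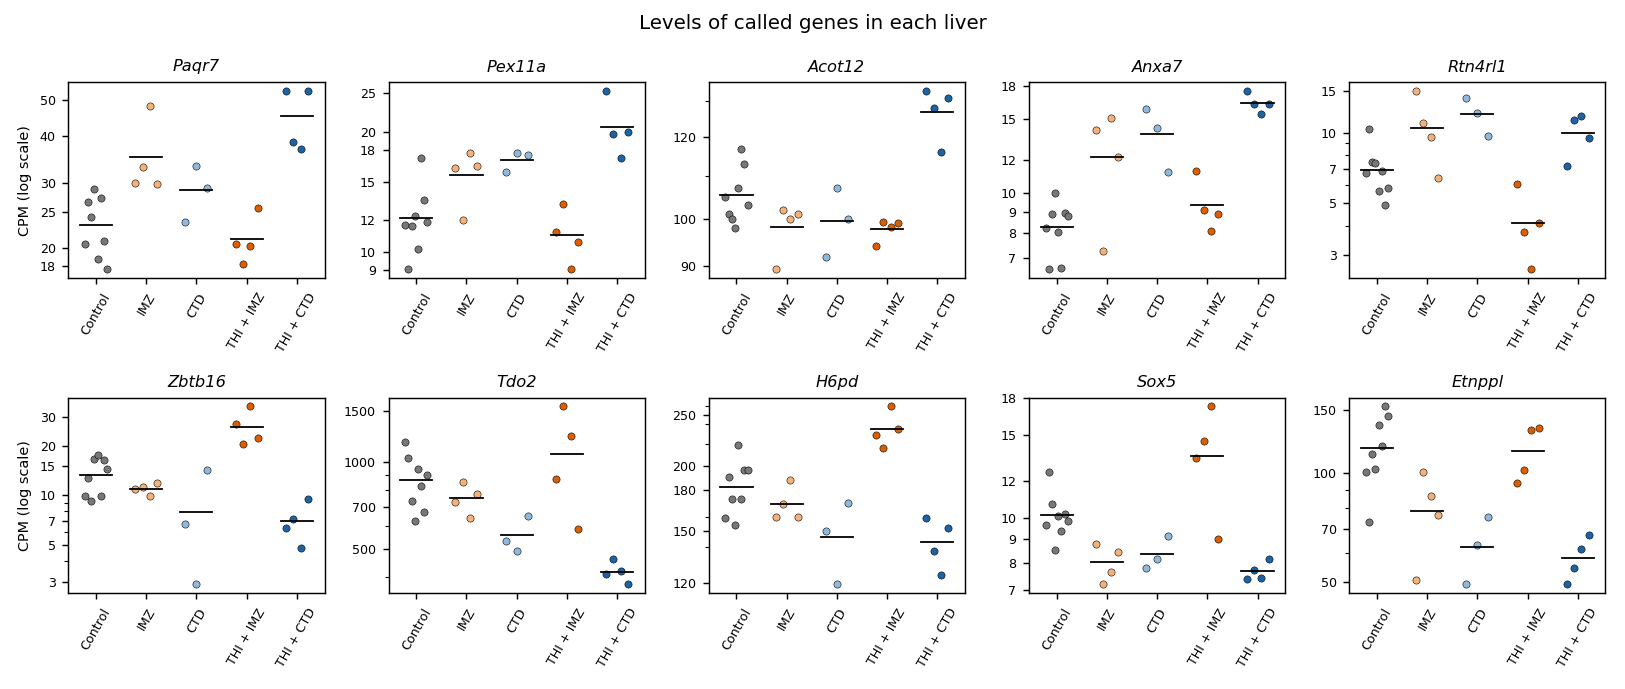
Levels of 10 DEGs in each liver of 5 groups as CPM on a log scale, with a point for each rat and a line at the group mean. The upper row shows genes whose THI + CTD livers all lie above the THI + IMZ livers (Rtn4rl1 at 7.18 to 11.8 against 2.62 to 6.02 CPM), and the lower row genes whose THI + CTD livers all lie below (Zbtb16 at 4.79 to 9.54 against 20.4 to 34.5 CPM).

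Among the genes that were higher with CTD, Paqr7 encodes a membrane progestin receptor. Its levels were 52.7, 38.5, 37 and 52.7 CPM in the THI + CTD livers and 20.6, 18.2, 20.3 and 25.7 CPM in the THI + IMZ livers. The 8 controls ran from 17.6 to 28.9 CPM with a median of 22.6, so all THI + CTD livers lay above every control while the THI + IMZ livers lay within the control range. The difference was 2.13-fold, a log2-fold change of 1.09 ± 0.18 (SE), with an adjusted p of 0.0111. Pex11a, which takes part in the division of peroxisomes, was at 25.3, 19.8, 17.2 and 20 CPM in THI + CTD and at 11.2, 13.2, 9.05 and 10.6 CPM in THI + IMZ. The groups did not overlap, and the controls (9.05 to 17.2 CPM) reached only to the lowest THI + CTD liver. Its fold was 1.87 (log2 0.91 ± 0.17, adjusted p = 0.0236). Acot12, a cytosolic thioesterase for acetyl-CoA, showed a small but tight difference. It was at 133, 128, 116 and 131 CPM in THI + CTD and at 94.1, 99.2, 98.2 and 99 CPM in THI + IMZ, 1.3-fold higher (log2 0.38 ± 0.07, adjusted p = 0.0181).

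Anxa7, a calcium-dependent membrane-binding annexin, was at 17.5, 16.3, 15.4 and 16.3 CPM in THI + CTD and at 11.3, 9.08, 8.09 and 8.89 CPM in THI + IMZ. All THI + CTD livers exceeded the highest control of 10 CPM, and the fold between the mixtures was 1.75 (log2 0.81 ± 0.17, adjusted p = 0.0442). Rtn4rl1, a receptor of the Nogo receptor family, had the largest log2-fold change among the higher DEGs. Its levels were 7.18, 11.3, 11.8 and 9.44 CPM against 6.02, 3.76, 2.62 and 4.14 CPM, a 2.4-fold difference (log2 1.26 ± 0.26, adjusted p = 0.0315). Here the control median of 6.81 CPM lay between the groups. Pde5a, the phosphodiesterase specific for cyclic GMP, was at 3.47 to 6.15 CPM against 2.34 to 2.69 CPM (log2 0.97 ± 0.21, adjusted p = 0.0444).

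The other DEGs that were higher with CTD include regulators of transcription and of histone mRNA. Bend3, a chromatin-bound repressor, ran from 4.34 to 5.69 CPM in THI + CTD and from 1.93 to 3.72 CPM in THI + IMZ. Klf16, a zinc finger transcription factor, ran from 4.88 to 8.73 and from 2.98 to 4.36 CPM. Slbp, which binds the stem-loop of replication-dependent histone mRNAs, ran from 17.6 to 20.5 and from 12.8 to 16 CPM. In each of the 3 genes the ranges did not meet, and the log2-fold changes were 0.86, 0.84 and 0.41. Eepd1 (log2 0.56), the inositol trisphosphate kinase Itpka (0.73), the unnamed ENSRNOG00000021687 (0.80) and the adaptor of the cytoskeleton Kank2 (0.91) complete the 13. Kank2 overlapped, with a THI + CTD liver at 33 CPM and a THI + IMZ liver at 33.9 CPM.

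Among the genes that were lower with CTD, Zbtb16 had the smallest p. It encodes the transcription factor PLZF. Its levels were 6.31, 7.18, 4.79 and 9.54 CPM in THI + CTD and 27.2, 20.4, 34.5 and 22.1 CPM in THI + IMZ. The controls ran from 9.19 to 17.6 CPM, so every THI + IMZ liver lay above and 3 of 4 THI + CTD livers below the control range. The difference was 3.75-fold, a log2-fold change of -1.91 ± 0.32 (adjusted p = 0.0111). Tdo2, tryptophan dioxygenase, opens the degradation of tryptophan in the liver. It was at 410, 461, 420 and 377 CPM in THI + CTD and at 874, 1550, 1230 and 584 CPM in THI + IMZ, 2.54-fold lower with CTD (log2 -1.35 ± 0.23, adjusted p = 0.0111, and log2 -1.55 without THI + IMZ replicate 4). All 4 THI + CTD livers lay below the lowest control of 623 CPM. H6pd, the enzyme that makes NADPH inside the endoplasmic reticulum, was at 159, 138, 124 and 152 CPM against 229, 216, 259 and 235 CPM (log2 -0.71 ± 0.12, adjusted p = 0.0111).

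The transcription factor Sox5 was at 7.4, 7.74, 7.43 and 8.15 CPM in THI + CTD and at 13.4, 14.6, 17.3 and 9.02 CPM in THI + IMZ. The groups were apart by less than 1 CPM at THI + IMZ replicate 4, and the log2-fold change was -0.82 ± 0.14 (adjusted p = 0.0111), or -0.97 without that liver. Etnppl, which degrades phosphoethanolamine, was at 49.3, 54.8, 61.7 and 67.5 CPM against 94, 102, 132 and 133 CPM. The THI + IMZ livers lay within the control range of 73.2 to 153 CPM and the THI + CTD livers below it, with a log2-fold change of -0.98 ± 0.18 (adjusted p = 0.0184). Cldn14, a claudin of tight junctions, was at 11.4, 14.3, 12.4 and 19.3 CPM against 27.8, 32.8, 31.1 and 22.5 CPM (log2 -0.99 ± 0.19, adjusted p = 0.0184).

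Other DEGs were lower with CTD by smaller amounts. The membrane-bound transcription factor Creb3l2 was at 13.6 to 17.2 CPM in THI + CTD and 20.3 to 28.3 CPM in THI + IMZ. Crebrf, a regulator of that family, was at 12.9 to 16.2 and 19.2 to 25.9 CPM. Fam134b, a receptor for the autophagy of endoplasmic reticulum, was at 24.9 to 40.5 and 48.8 to 77.4 CPM. None of these 3 ranges met, and the log2-fold changes were -0.78, -0.57 and -0.95. The interleukin receptor subunit Il6r was at 69.1 to 97.9 CPM against 123 to 150 CPM (log2 -0.70), and the transporter of aromatic amino acids Slc16a10 at 44.9 to 52 CPM against 63.9 to 74.7 CPM (log2 -0.53). P4ha1, a subunit of the collagen prolyl hydroxylase, was at 15.2 to 25.2 CPM against 29.1 to 31.2 CPM (log2 -0.74).

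Arhgef26 (log2 -0.86), Fam13a (-0.63), the kinase Nuak2 (-0.57), the chromatin remodeler Chd7 (-0.55), the kinase Tec (-0.53), the actin regulator Mtss1 (-0.47) and the anchoring protein Akap13 (-0.46) were lower as well. The largest of the 34 differences in size rested on an uneven group. Krt23, a keratin, was at 4.58, 6.85, 2.04 and 3.29 CPM in THI + CTD and at 25.7, 63.4, 37 and 2.51 CPM in THI + IMZ (log2 -2.94 ± 0.65, adjusted p = 0.0498). ENSRNOG00000037549, which has no symbol in the count table, was at 138, 144, 225 and 128 CPM in THI + CTD and at 1980, 5920, 1900 and 23.1 CPM in THI + IMZ (log2 -3.95 ± 0.87, adjusted p = 0.049). In both genes 3 THI + IMZ livers lay within or above the control range and replicate 4 lay among or below the THI + CTD livers. Without that liver the log2-fold changes were -3.33 and -4.37. The DEGs next to the threshold were ENSRNOG00000021687, Kank2 and Krt23, and the genes just outside it were CFLAR, Fermt2 and Elf1, with adjusted p of 0.0546, 0.0547 and 0.0547.

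Promoter sequences are shown for the DEG that was higher with the smallest p (Paqr7), for Tdo2, and for the DEGs whose window holds both of the letter strings searched (Acot12 and Cldn14, besides Eepd1). The 300 bases run from 250 before to 50 after the gene start in RefSeq on the build GRCr8, while the counts were made on Rnor_5.0. Capitals mark AGGTCA, the core letters bound by many nuclear receptors, and AGAACA, letters of the glucocorticoid receptor element, on either strand.
Paqr7 (chr5:151992599-151992898, plus strand): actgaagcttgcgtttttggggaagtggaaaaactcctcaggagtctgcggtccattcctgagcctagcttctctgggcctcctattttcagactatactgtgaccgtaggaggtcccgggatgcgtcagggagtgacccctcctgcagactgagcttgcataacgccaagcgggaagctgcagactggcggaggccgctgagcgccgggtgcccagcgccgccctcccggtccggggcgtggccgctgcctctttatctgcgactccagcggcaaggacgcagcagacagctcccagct
Tdo2 (chr2:169585537-169585836, minus strand): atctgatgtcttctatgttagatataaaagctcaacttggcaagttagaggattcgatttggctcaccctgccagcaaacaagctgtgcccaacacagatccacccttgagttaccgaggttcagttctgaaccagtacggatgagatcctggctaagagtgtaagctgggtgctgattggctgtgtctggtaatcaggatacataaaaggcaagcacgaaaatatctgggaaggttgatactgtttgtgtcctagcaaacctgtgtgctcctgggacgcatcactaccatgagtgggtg
Acot12 (chr2:24721709-24722008, plus strand): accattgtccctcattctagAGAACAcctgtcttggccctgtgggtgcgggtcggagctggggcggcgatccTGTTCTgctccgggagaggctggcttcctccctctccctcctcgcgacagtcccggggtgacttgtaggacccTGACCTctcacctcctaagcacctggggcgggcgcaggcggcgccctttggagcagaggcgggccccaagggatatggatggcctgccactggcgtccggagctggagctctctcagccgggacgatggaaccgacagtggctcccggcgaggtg
Cldn14 (chr11:46711689-46711988, minus strand): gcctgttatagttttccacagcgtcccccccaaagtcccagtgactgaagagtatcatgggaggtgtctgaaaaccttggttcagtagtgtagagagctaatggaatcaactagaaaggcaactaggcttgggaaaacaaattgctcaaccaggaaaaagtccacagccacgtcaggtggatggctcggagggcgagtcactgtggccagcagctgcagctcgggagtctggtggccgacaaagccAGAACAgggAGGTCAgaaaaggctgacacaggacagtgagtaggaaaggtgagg
Of the 34 DEGs, 24 matched 1 entry of the promoter table. AGGTCA stood in 6 of the 24 windows (25%), compared with 16.2% of all 33469 windows of this length, and AGAACA in 4 of the 24 (16.7%), compared with 20.7%. In none of the 24 did the strings overlap. A match of letters is a description and does not show binding, and the strings were chosen with the DEGs known.

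Each mixture was also set against the 8 controls, and both comparisons share those controls, so their values are given side by side. THI + CTD gave 873 DEGs against control (4.39% of genes, 2.67% higher and 1.71% lower) and THI + IMZ 235 (1.18%, 0.849% higher and 0.332% lower). For Zbtb16 the log2-fold change against control was -0.94 in THI + CTD (adjusted p = 0.0468) and 0.97 in THI + IMZ (adjusted p = 0.0521). For Paqr7 it was 0.97 (adjusted p = 0.000198) and -0.12 (adjusted p = 0.797). Tdo2 stood at -1.05 (adjusted p = 0.00269) and 0.30 (adjusted p = 0.605). Thus Zbtb16 lay on opposite sides of the controls by like amounts, while Paqr7 and Tdo2 were away from the controls mainly in THI + CTD. Etnppl followed the same form with -1.01 (adjusted p = 0.000339) and -0.03 (adjusted p = 0.984), as did Anxa7 with 0.98 (adjusted p = 9.02e-05) and 0.17 (adjusted p = 0.69). In 2 DEGs it was THI + IMZ that passed the threshold against control, Fam134b with 0.65 (adjusted p = 0.0443) and Mtss1 with 0.32 (adjusted p = 0.0473), and their values in THI + CTD were -0.30 and -0.15.

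**Figure D2:**
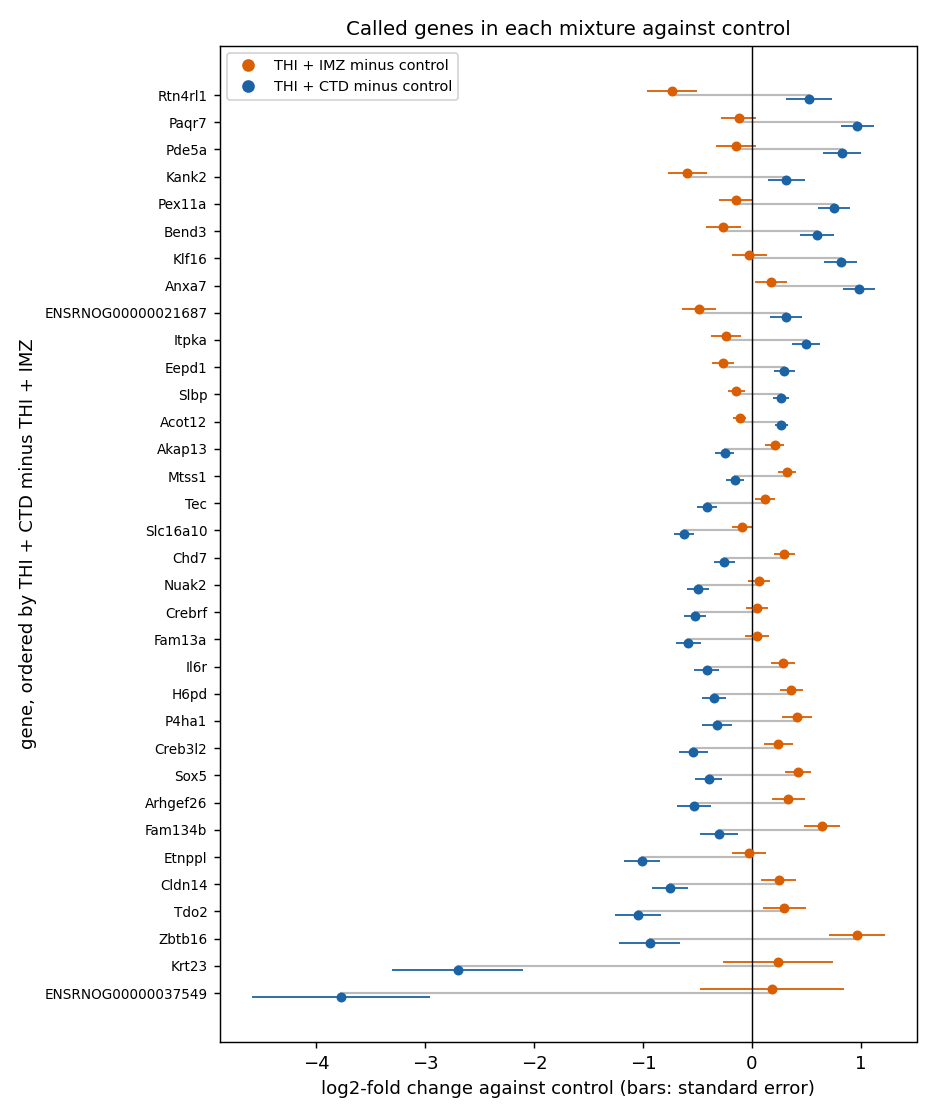
Log2-fold change of each of the 34 DEGs against the 8 controls in THI + IMZ (orange) and THI + CTD (blue), with bars of 1 standard error and a vertical line at 0. Genes are ordered by the difference between the mixtures, from Rtn4rl1 (1.26) at the top to ENSRNOG00000037549 (-3.95) at the bottom, and both series share the controls.

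The compounds given alone provide the same exchange in other rats. CTD alone against IMZ alone shares no liver with the comparison of the mixtures, and there the doses were 288 and 93 mg/kg bw/day. It gave 930 DEGs, or 4.67% of genes (2.28% higher and 2.4% lower with CTD), and 491 without IMZ replicate 2. Of the 34 DEGs of the mixtures, 28 (82.4%) had the same sign in CTD against IMZ, while 54.5% of all genes and 57.7% of the genes with a mean log2 CPM above 0 had the same sign in both. In the direction seen in the mixtures, the median log2-fold change of the 34 genes was 0.17 between the compounds alone, compared with 0.80 between the mixtures. The genes were selected for their difference between the mixtures, so the larger value there was fixed by the selection and the medians are a description only. Only Slbp (log2 0.47, adjusted p = 0.00202), Fam13a (-0.51, adjusted p = 0.029) and Creb3l2 (-0.56, adjusted p = 0.0496) were DEGs in both. For Zbtb16 the value was -0.47 (adjusted p = 0.502), with CTD livers at 2.89, 6.71 and 14.3 CPM and IMZ livers from 9.86 to 11.9 CPM. Paqr7 had the other sign, at -0.30 (adjusted p = 0.455), with 23.6 to 33.2 CPM in CTD and 29.7 to 48.1 CPM in IMZ.

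With the selection made on the compounds alone, 628 of the 930 DEGs (67.5%) had the same sign between the mixtures. Their median log2-fold change in that direction was 0.08 between the mixtures, against a median absolute value of 0.54 between the compounds alone. These genes were selected for their difference between the compounds alone, so the larger value there was fixed by the selection. The partner doses were also lower in the mixtures, at 134 mg/kg bw/day of CTD and 46 of IMZ, against 288 and 93 alone. Across the 11297 genes with a mean log2 CPM above 0, the log2-fold changes of both comparisons had a Pearson r of 0.334. The comparisons share no liver, but all libraries share the sequencing and counting steps. Genes are not independent replicates, and no p is given.

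**Figure D3:**
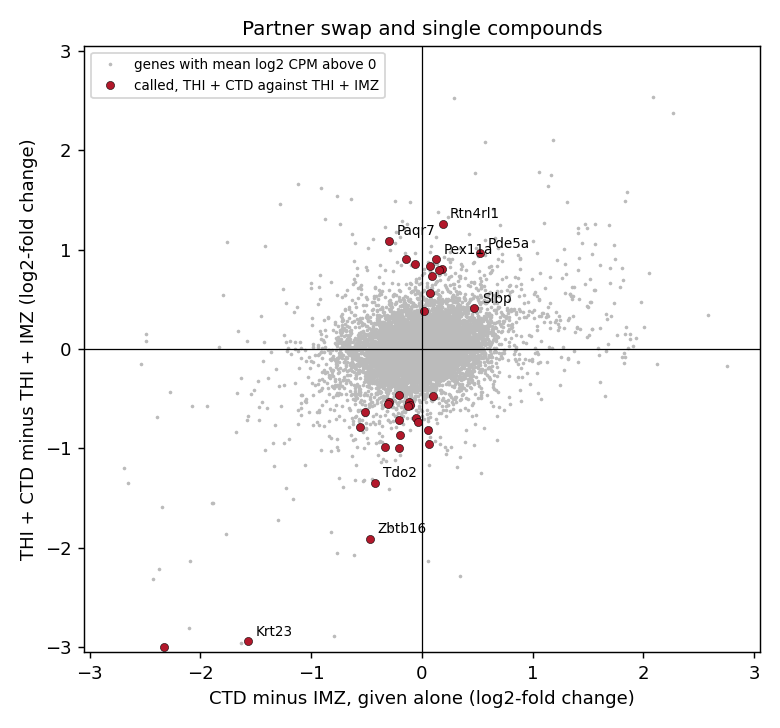
Log2-fold change of THI + CTD minus THI + IMZ (vertical axis) against CTD minus IMZ given alone (horizontal axis) for the 11297 genes with a mean log2 CPM above 0 (grey), with the DEGs of the mixtures in red. Most DEGs lie close to the vertical line, with a median of 0.17 between the compounds alone and 0.80 between the mixtures. Of the 11297 genes, 7 fall outside the axes. Among them only ENSRNOG00000037549 is drawn, at the lower edge of the axis at -3.

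A further test asked whether the difference between the mixtures departed from what the compounds alone gave, with their log2-fold changes against control weighted by dose (0.47 for CTD and 0.5 for IMZ). It was past the threshold for 12 genes, or 0.0603% (0.0402% higher and 0.0201% lower), but for 58 without CTD replicate 2 and for 1 without THI + IMZ replicate 2. Of the 34 DEGs, Paqr7 (departure of log2 1.25 ± 0.21, adjusted p = 0.00968) and Sox5 (-0.86 ± 0.16, adjusted p = 0.0232) were among them. For Sox5 the compounds alone were close to each other, at 7.78 to 9.11 CPM in CTD and 7.19 to 8.78 CPM in IMZ. In other genes the departure came with a level that CTD alone had and the mixtures had not. Scamp3, a membrane protein of vesicle recycling, was at 11.2, 11.9 and 12.6 CPM in the 3 CTD livers. It was at 38.3 to 45.3 CPM in THI + CTD, 38.5 to 46 CPM in THI + IMZ and 35.4 to 44.7 CPM in the controls (departure of log2 0.88 ± 0.10, adjusted p = 8.92e-06). The adaptor Crkl was at 3.05 to 4.76 CPM in CTD and 9.08 to 11.5 CPM in THI + CTD, and Appbp2 at 18.7 to 24.6 and 32.4 to 38 CPM. Ociad1 was high in CTD, at 70.3 to 76.2 CPM, and at 40.6 to 45.1 CPM in THI + CTD. Thus the 3 CTD livers did not overlap the THI + CTD livers in any of these 4 genes, and none of the 4 was a DEG between the mixtures.

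No member of the 44 gene lists used to describe pathways and cell types was a DEG between the mixtures, against the 0.171% of all genes. This held in the edgeR fit of all livers and not in every alternative. Without THI + IMZ replicate 4 there were DEGs among the CAR and PXR targets (Aldh1a7), the qRT-PCR genes (Mme), the growth hormone axis (A1bg and Prlr), pericentral genes (Slc1a2), complement and coagulation (F7) and hepatocyte markers (Asgr1). Without THI + IMZ replicate 1 they were Junb, Cdkn1a, Hmox1, Hamp and Axin2. The DESeq2 Wald test called members of many lists, among them Mme, Gclm, Irs2, Stat5b, XBP1, Junb, Cdkn1a, Hmox1, Slc1a2, Hal, Oasl and F7. The lists are therefore described by the members at an unadjusted p under 0.05 and by their medians, to be read against 4.95% of all genes higher, 5.17% lower and a median log2-fold change of 0 (0.00339 for genes with a mean log2 CPM above 0). Targets of CAR and PXR were above control in both mixtures and did not differ between them past the threshold, although the intervals of the differences are wide. Of the 21 members tested, 2 were higher and 1 lower at an unadjusted p under 0.05, with a median of 0.17. A positive log2-fold change was seen in 18 of the 21, beside 44.7% of all genes. Against control, 16 members were DEGs in THI + CTD and 11 in THI + IMZ, with median log2-fold changes of 1.22 and 0.825. Cyp2b2, a phenobarbital-inducible cytochrome P450, was at 272, 525, 408 and 310 CPM in THI + CTD, at 406, 316, 341 and 124 CPM in THI + IMZ and at 1.51 to 12.1 CPM in the controls. Both mixtures lay far above every control and overlapped each other, and the interval of their difference in log2 ran from -0.65 to 1.35. Reads of Cyp2b2 can be split with its near-identical neighbors, so its level is uncertain.

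The multidrug transporter Abcc3 was at 65.8 to 96.8 CPM in THI + CTD and 48.8 to 103 CPM in THI + IMZ, compared with 6.97 to 25.2 CPM in the controls (difference in log2 0.04, 95% interval -0.51 to 0.59). Its sign turned when THI + CTD replicate 2 or 4 or THI + IMZ replicate 2 was left out. The aldehyde dehydrogenase Aldh1a1 was at 402 to 568 and 307 to 539 CPM, with controls at 46.8 to 172 CPM (0.31, interval -0.27 to 0.90). Both entries named Cyp3a23/3a1 were above every control in both mixtures, with differences of 0.17 (-0.59 to 0.93) and 0.07 (-0.78 to 0.93), whose signs turned when single livers were left out. They carry the same symbol, and counts may be divided between them. An exception in size was Aldh1a7, at 1.86, 1.61, 1.94 and 1.59 CPM in THI + CTD and 0.234, 0.215, 0.544 and 0.803 CPM in THI + IMZ. The groups did not overlap (log2 1.94 ± 0.47), but the adjusted p was 0.0751. Aldh1a7 passed the threshold without THI + IMZ replicate 4 (log2 2.39) and with edgeR's newer quasi-likelihood method, and its adjusted p ran from 0.0292 to 0.247 over all alternatives. Akr7a3 had a log2-fold change of 0.57 (adjusted p = 0.301) and overlapping livers.

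Of the genes the study chose for qRT-PCR on these samples, 11 entries were tested and none was a DEG. Since they were chosen for responses in this series, their direction is not independent evidence. Mme, the membrane peptidase neprilysin, was closest. It was at 16, 14.9, 17.9 and 16.5 CPM in THI + CTD and at 4.45, 3.87, 4.1 and 6.57 CPM in THI + IMZ, with controls at 0.271 to 0.83 CPM. The 3 groups were fully apart, and the log2-fold change between the mixtures was 1.78 ± 0.41 with an adjusted p of 0.0696. Mme passed the threshold in 4 alternatives, which were edgeR's fit of the 8 livers only, a replicate block in that fit, the DESeq2 Wald test and leaving out THI + IMZ replicate 4 (log2 1.98). Over all alternatives of edgeR and DESeq2 its adjusted p ran from 0.00133 to 0.224. Cyp7a1, the rate-limiting enzyme of bile acid synthesis, was at 108, 110, 132 and 46.6 CPM against 42.2, 19.3, 31.5 and 32.9 CPM (log2 1.66 ± 0.57, adjusted p = 0.256). Megf11 was at 4.3 to 6.53 CPM against 6.86 to 8.06 CPM (log2 -0.45, adjusted p = 0.46). Ky (log2 -0.68) and elastin, Eln (0.17), overlapped between the mixtures.

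**Figure D4:**
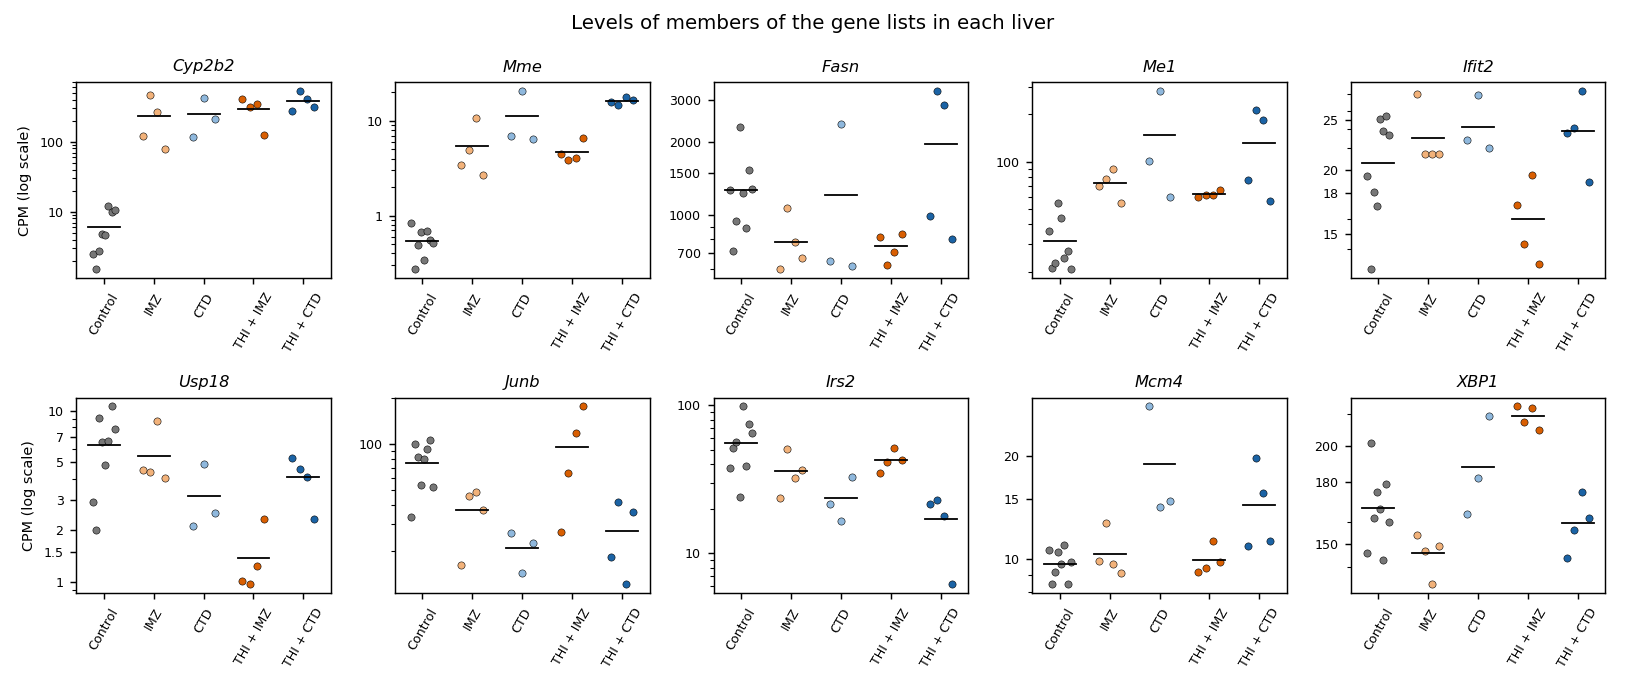
Levels of 10 members of the gene lists in each liver of 5 groups as CPM on a log scale, with a point for each rat and a line at the group mean. None was a DEG between the mixtures. Mme, XBP1 and Irs2 did not overlap between THI + CTD and THI + IMZ, while Fasn and Me1 were high in 2 of the 4 THI + CTD livers (3250 and 2860 CPM for Fasn, against 991 and 796 CPM).

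Genes of fatty acid synthesis leaned to higher levels in THI + CTD than in THI + IMZ. Of 19 members tested, 18 had a positive log2-fold change, 10 of them with an unadjusted p under 0.05. Their median was 0.72. Against control, the list medians were 0.269 in THI + CTD and -0.311 in THI + IMZ. Fatty acid synthase, Fasn, was at 991, 3250, 2860 and 796 CPM in THI + CTD and at 811, 624, 709 and 837 CPM in THI + IMZ (log2 1.41 ± 0.41, adjusted p = 0.159). The 2 high livers were replicates 2 and 3 of THI + CTD, while replicate 4 lay within the THI + IMZ range. Controls of Fasn ran from 712 to 2310 CPM with a median of 1260, and the other THI + CTD livers lay below that median. Malic enzyme, Me1, had the same form at 76.8, 212, 184 and 56.6 CPM against 59.8 to 66.4 CPM. The lipid droplet protein Pnpla3 was at 6.7, 134, 155 and 2.23 CPM against 2.2 to 16.2 CPM, and the desaturase Fads2 at 606, 798, 819 and 317 CPM against 192 to 467 CPM. The controls ran from 20.7 to 54.7 CPM for Me1, 1.24 to 68.7 CPM for Pnpla3 and 136 to 559 CPM for Fads2. Without THI + CTD replicate 2, 5 of the 19 were at an unadjusted p under 0.05, and without replicate 1 there were 14.

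Genes of gluconeogenesis and fasting were lower in 9 of 10 members, 3 of them at an unadjusted p under 0.05, with a median of -0.42. Irs2, an adaptor of the insulin receptor, was at 21.6, 22.9, 17.8 and 6.15 CPM against 34.9, 41.6, 51.8 and 42.9 CPM. These ranges did not meet (log2 -1.32 ± 0.36, adjusted p = 0.137). The binding protein Igfbp1 was at 74.6, 30.4, 17.8 and 5.09 CPM against 72.6, 269, 140 and 80.6 CPM (log2 -2.14, adjusted p = 0.205). The count for gluconeogenesis and fasting was 2 without THI + CTD replicate 3 and 5 without THI + CTD replicate 1. In the growth hormone axis 4 of 12 members were lower at an unadjusted p under 0.05 (2 without THI + IMZ replicate 2). Its signal transducer Stat5b was at 68.9 to 77.1 CPM against 83.2 to 93.3 CPM (log2 -0.28, adjusted p = 0.137). The plasma protein A1bg was at 3450, 2920, 3420 and 2250 CPM against 6930, 9460, 6690 and 1310 CPM, again with THI + IMZ replicate 4 apart from its group, and its log2-fold change moved from -1.02 to -1.36 and past the threshold without that liver.

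The interferon response was the list with the largest share of members higher at an unadjusted p under 0.05, 8 of 15, with a median of 0.64. That share was close to the 10 of 19 of fatty acid synthesis. In CTD against IMZ given alone, the median of the interferon list had the other sign, at -0.552. Against control, 6 members were DEGs in THI + IMZ and 0 in THI + CTD, with list medians of -1.04 and -0.49. Oasl was at 2.39, 2.77, 1.6 and 1.06 CPM in THI + CTD and at 0.796, 0.591, 0.596 and 0.739 CPM in THI + IMZ (log2 1.51 ± 0.44, adjusted p = 0.154), with controls at 0.984 to 3.59 CPM. Every THI + IMZ liver lay below the lowest control. Usp18, an inhibitor of interferon signaling, was at 5.32, 4.57, 4.13 and 2.33 CPM against 1.01, 0.967, 1.24 and 2.34 CPM, and Ifit2 at 18.9 to 28.4 CPM against 13.1 to 19.5 CPM. The antigen peptide transporter Tap1 was at 38.7 to 56.3 CPM against 28.2 to 37.8 CPM (log2 0.49, adjusted p = 0.191). The class I gene RT1-T24-3 was at 3.8 to 6.09 CPM against 1.81 to 3.15 CPM (log2 0.82, adjusted p = 0.119), although reads of this gene family can be split among its members. Over the whole antigen presentation list 3 of 47 members were higher and 1 lower. Leaving out single livers gave 6 to 11 interferon members.

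Among proliferation genes, the cell division list did not differ at an unadjusted p in any of its 34 members, with a median of 0.16. In both mixtures it was far from control, with 30 DEGs in THI + CTD and 20 in THI + IMZ and medians of 1.99 and 1.83. Without THI + IMZ replicate 4, 10 of the 34 were higher. The DNA replication list had 27 of 28 members positive and 9 at an unadjusted p under 0.05 (median 0.41), and all 16 DNA repair members were positive, 3 of them at that level (median 0.33), a count of 0 without THI + CTD replicate 3 and of 9 without THI + IMZ replicate 4. The helicase subunit Mcm4 was at 10.9, 19.7, 15.6 and 11.3 CPM against 9.14, 9.42, 11.3 and 9.78 CPM (log2 0.54, adjusted p = 0.229). The origin protein Orc1 was at 0.127 to 0.624 CPM against 0.0259 to 0.127 CPM. Without THI + CTD replicate 2, the liver with the highest level of both, 1 of the 28 replication genes was left at that level.

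Immediate early genes, which respond quickly to many stimuli, were lower in 7 of 12 members at an unadjusted p under 0.05, with a median of -0.57. Junb was at 18.3, 41.6, 12 and 35.9 CPM in THI + CTD and at 26.7, 64.5, 118 and 177 CPM in THI + IMZ. The livers overlapped and the spread within THI + IMZ was wide (log2 -1.84 ± 0.44, adjusted p = 0.0712, and past the threshold without THI + IMZ replicate 1). Without THI + IMZ replicate 4, the highest liver, 3 of the 12 were at that level. The cell cycle inhibitor Cdkn1a, a p53 target, was at 7.23, 8.41, 6.64 and 5.77 CPM against 7.99, 19.4, 19.6 and 13.9 CPM (log2 -1.12 ± 0.27, adjusted p = 0.0717, and past the threshold without THI + IMZ replicate 1), in a list with 1 of 14 members higher and 2 lower. The stress transcription factor XBP1 was at 144, 156, 175 and 162 CPM against 225, 215, 224 and 210 CPM. These livers were well apart (log2 -0.46 ± 0.11), but the adjusted p was 0.0754. In its list of 15, 2 members were higher and 2 lower (7 lower without THI + CTD replicate 4).

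NRF2 targets, the antioxidant genes, had 4 of 14 members higher and 1 lower at an unadjusted p under 0.05, with a median of 0.29. Gclm, a subunit of the enzyme of glutathione synthesis, was at 103, 123, 120 and 106 CPM against 94.6, 79.6, 78.4 and 86.7 CPM (log2 0.41, adjusted p = 0.153). Gstp1, a glutathione transferase, was at 21.5, 179, 16.6 and 18 CPM against 12.3 to 15.7 CPM. The log2-fold change of 2.11 rested on THI + CTD replicate 2 and was 0.45 without it. The heme oxygenase Hmox1 went the other way, at 22.6 to 28.3 CPM against 26.5 to 42.6 CPM (log2 -0.52, adjusted p = 0.127), with overlapping livers.

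Lists of housekeeping complexes shifted by small amounts in many members. Of 40 proteasome genes 16 were lower at an unadjusted p under 0.05 and 0 higher (median -0.20), of 128 cytosolic ribosomal protein genes 26 were lower and 1 higher (median -0.15), and of 83 genes of oxidative phosphorylation 12 were lower and 0 higher (median -0.08). Psma7 was at 66.3 to 81.3 CPM in THI + CTD and 82.9 to 103 CPM in THI + IMZ, Rps4x at 18.1 to 23.3 and 24.4 to 30.4 CPM, and Cox6c at 103 to 119 and 118 to 145 CPM. The ranges of Cox6c overlapped and those of Psma7 and Rps4x lay close together. The counts moved with single livers. The proteasome count was 7 without THI + IMZ replicate 1 and 23 without replicate 4. The ribosomal count was 7 without THI + IMZ replicate 3 and 41 without THI + CTD replicate 4. That of oxidative phosphorylation was 5 without THI + IMZ replicate 3 and 23 without replicate 1. Ribosomal protein genes have many processed copies, so their counts are uncertain.

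Among other liver functions, PPARA targets had 1 of 20 members higher (median 0.09) and cholesterol synthesis and uptake 2 of 23 (median 0.09). Bile acid synthesis and transport had 3 of 14 higher and 1 lower (median 0.05), and 1 to 4 higher without single livers. Cytochrome P450 genes had 7 of 70 higher and 1 lower (median 0.04), but 1 to 6 higher and 0 to 5 lower without single livers. Glucuronidation and sulfation had none of 21. Periportal genes were lower in 4 of 9 members (2 without THI + CTD replicate 3), such as Hal of histidine degradation at 321 to 367 CPM against 396 to 604 CPM (log2 -0.56, adjusted p = 0.157). Pericentral genes were split, 2 higher and 1 lower of 9, and the glutamate transporter Slc1a2 among them was at 8.3 to 10.6 CPM against 14.2 to 26.4 CPM (log2 -1.12 ± 0.27, adjusted p = 0.0728, and log2 -1.26 and past the threshold without THI + IMZ replicate 4). Complement and coagulation had 5 of 20 lower and 1 higher (3 lower without THI + CTD replicate 2, and 8 without replicate 1), and its factor F7 was at 90.8 to 102 CPM against 188, 227, 164 and 87.1 CPM, where THI + IMZ replicate 4 alone lay with the other group. The log2-fold change of F7 was -0.80 (adjusted p = 0.142) with that liver and -1.01 and past the threshold without it (adjusted p of 0.0162 to 0.489 over all alternatives). Acute phase genes had 2 of 14 lower and 1 higher (5 lower without THI + IMZ replicate 4), and Lbp was at 31.7 to 53.8 CPM against 53.3 to 102 CPM.

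**Figure D5:**
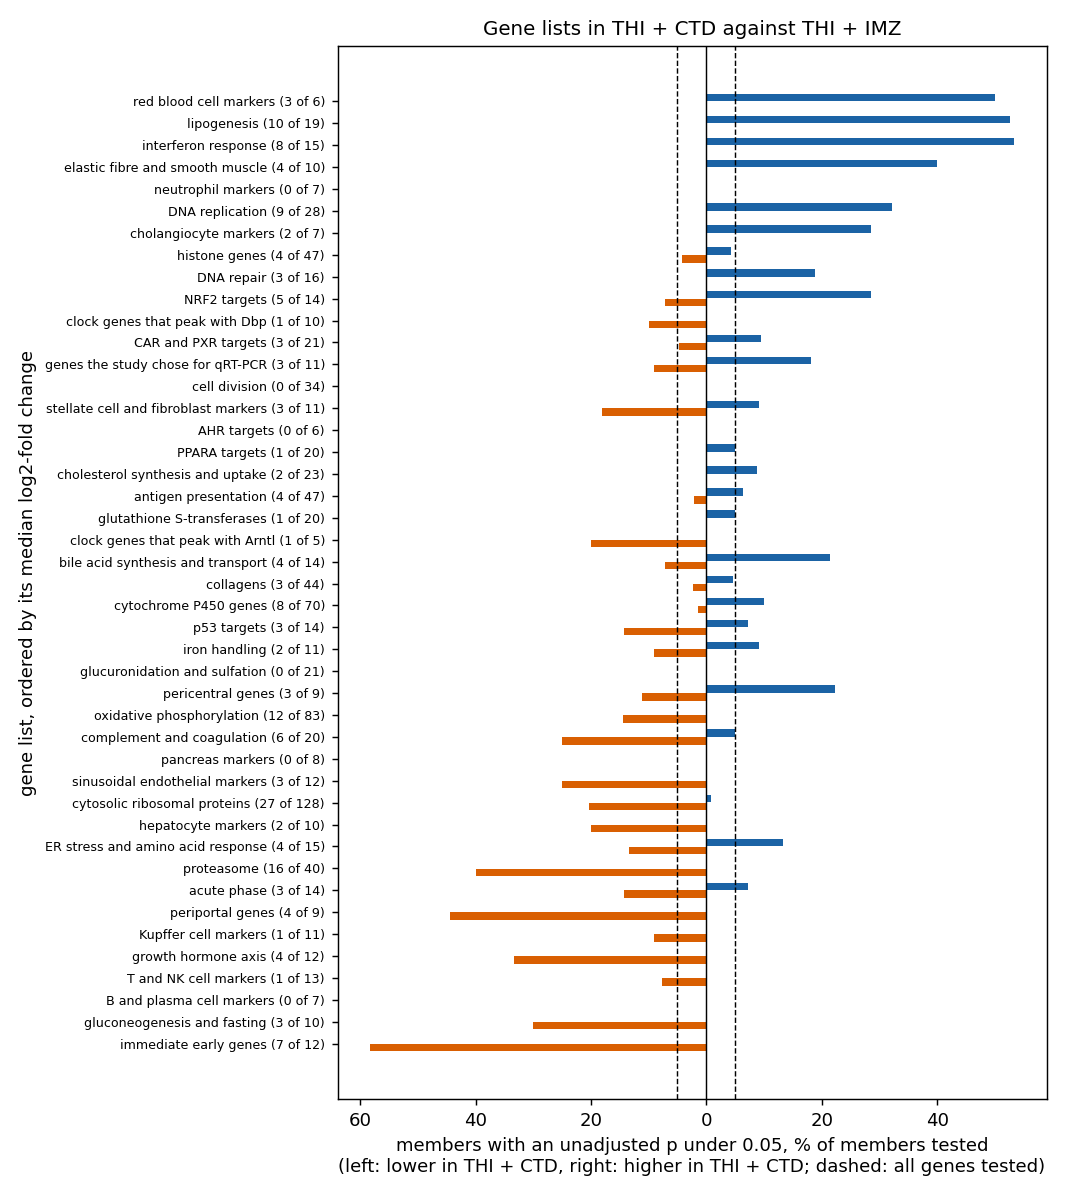
Share of the members of each of the 44 gene lists at an unadjusted p under 0.05, as a percentage of the members tested, with genes higher in THI + CTD to the right (blue) and lower to the left (orange). Dashed lines mark the shares over all genes tested, 4.95% higher and 5.17% lower, the numbers in brackets are members at that level of members tested, and lists are ordered by their median from red blood cell markers at the top to immediate early genes at the bottom.

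Markers of the cell types in a liver sample were checked in the same livers. The summed level of 10 hepatocyte markers ran from 173000 to 223000 CPM in THI + CTD and from 187000 to 263000 CPM in THI + IMZ, and albumin alone took 10.92% to 17.13% of the counts over both groups. Sums of 12 markers of sinusoidal endothelium ran from 468 to 518 and from 532 to 562 CPM and did not overlap, nor did those of 7 B and plasma cell markers, at 0.964 to 1.19 and 1.31 to 1.48 CPM. None of these 7 markers was at an unadjusted p under 0.05, and none had a mean log2 CPM above 0, so their sums rest on few reads. Kupffer cell markers ran from 465 to 614 and from 474 to 643 CPM, and T and NK cell markers from 15.6 to 19.1 and from 18.9 to 24.5 CPM. In bulk tissue fewer cells of a type and less RNA per cell cannot be told apart. Most of the T and NK sum was Cd4, at 11.2 to 15.4 and 13.1 to 16.2 CPM, so the sum mainly describes this gene and not the other members. The T cell kinase Zap70 was at 0.17 to 0.446 CPM in THI + CTD and 2.16, 5.21, 0.907 and 0.211 CPM in THI + IMZ. Its controls ran from 0.277 to 11.2 CPM. Of the 13 T and NK cell markers it alone was at an unadjusted p under 0.05. Cd3e was at 0 to 0.0892 and 0.0468 to 0.296 CPM, with controls at 0 to 0.121 CPM. Cholangiocyte markers ran from 18 to 23.1 and from 11.4 to 18.2 CPM, with keratin Krt19 at 2.61 to 5.15 and 1.74 to 2.77 CPM. Red blood cell markers reached 172 CPM in 1 THI + CTD liver, against at most 35 CPM in THI + IMZ. Neutrophil markers summed to at most 0.482 CPM in both mixtures and 2 of the 7 were at 0 in each mixture. Stellate cell and fibroblast markers ran from 416 to 564 and from 375 to 491 CPM, and pancreas markers from 22 to 145 and from 57.9 to 182 CPM, with controls at 194 to 470 CPM. The part of these cell types in the differences above was not tested.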

How the data were processed

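Livers of 31 female rats were sequenced by the authors as ribosome-depleted, stranded total RNA. Per the study's methods and the submitters' notes, reads were checked with FastQC 0.11.5 and aligned to Rnor_5.0 with STAR 2.5.2b, and DESeq2 1.15.1 was used for the authors' own tests. The annotation release and the strand setting of the counting are not given in the sources used here. The authors deposited a table of raw counts per gene (26312 genes) and a table of normalized signal values, which equal the counts divided by 1 constant per library (largest relative deviation 5.33e-15). The counts were used for all tests.

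Genes were kept where their counts, summed across all 31 libraries, reached 2 (19904, of which 17144 have a symbol). A model of the 7 groups was fitted to all 31 livers with edgeR 4.0.16 in R 4.3.3 (TMM scaling, quasi-likelihood test, biological coefficient of variation 19.4%), with Benjamini-Hochberg adjustment over all genes. Adjusted p-values in the text come from this fit unless another tool is named. Standard errors are the log2-fold change divided by the root of F, and intervals are at 95%. Replicates are separate rats. Sequencing depth limits precision for genes near 0 CPM, such as Orc1 and both Cyp3a23/3a1 entries.

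The comparison, the 44 gene lists and the rules were chosen with earlier results of these data known. Named genes were the 10 highest and 10 lowest log2-fold changes among DEGs with a symbol, a mean log2 CPM above 0 and no overlap of livers, up to 4 members per list with the smallest p, the genes the study measured by qRT-PCR, and up to 5 genes with the smallest p in the test against the compounds alone. Other genes were named after their values were seen, and 2 genes that the rule names are not reported here. Promoters were read from RefSeq tables (GRCr8), and 24 of the 34 DEGs matched. The scripts were tested on simulated data. Alternatives were DESeq2 1.42.0 (size factors and Wald test), other filters, a newer quasi-likelihood method, thinned libraries, a fit of 8 livers, a replicate block and leaving out single livers. A robust prior, and the list counts under every alternative, were added after seeing the data.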

Additional observations from a re-analysis of the deposited data

Results flagged for a closer look

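In 160 groups of 4 livers (2 mixtures for each gene tabulated), 7 had 1 liver whose gap to the nearest other liver, divided by the range of the group, exceeded Dixon's critical value at the 95% level. That is 4.38%, where chance gives about 5%. For Creb3l2 it was THI + IMZ replicate 1 (20.3 CPM, ratio 0.875), and for Megf11 THI + IMZ replicate 2 (8.06 CPM, 0.883). In THI + CTD it was replicate 1 for Tec (34.5 CPM, 0.899), replicate 2 for Gstp1 (179 CPM, 0.97) and Zap70 (0.446 CPM, 0.917), replicate 3 for ENSRNOG00000037549 (225 CPM, 0.835) and replicate 4 for P4ha1 (25.2 CPM, 0.83).

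In 12 genes the difference between the mixtures departed from the dose-weighted difference of the compounds alone, tested as 1 contrast in edgeR. The departure in log2 was positive for Paqr7 (1.25), Scamp3 (0.884), Crkl (0.735), Pml (0.729), Serping1 (0.571), Atp6v0c (0.507), Appbp2 (0.502) and Stxbp2 (0.426). It was negative for Sox5 (-0.855), XBP1 (-0.635), Sowahc (-0.586) and Ociad1 (-0.431).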

How the results depend on the processing

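The count of 34 DEGs between the mixtures was 35 with the size factors of DESeq2, 43 with filterByExpr, 32 with no filter, 35 with the newer quasi-likelihood method, 40 with thinned libraries and 28 with a robust prior, which was added after seeing the data. It was 227 with the DESeq2 Wald test and 5 in a fit of the 8 livers only. The same-numbered livers showed no clear shared deviation (correlations of -0.132, 0.0321, 0.0571 and -0.138). With so few livers these values cannot exclude a pairing, and the labels do not say what the numbers mean. With a replicate block there were 4 DEGs in the fit of 8 livers and 16 in the fit of 31. Leaving out single livers gave 0 to 109. All 34 kept their direction and an unadjusted p under 0.05 under each of these settings, which reuse the livers that selected them and are not independent evidence. The test against the compounds alone gave 37 genes with filterByExpr, 164 with the Wald test and 1 to 58 without single livers. CTD against IMZ gave 1461 with the Wald test and 491 to 895 without single livers. For the mixtures against control, THI + CTD gave 1386 genes with the Wald test. For the mixtures against control, THI + IMZ gave 435. The share of DEGs with the same sign in CTD against IMZ ran from 50% without THI + CTD replicate 3, where only 2 DEGs were left, to 87.9%. Without single livers the sign of the log2-fold change between the mixtures turned for 4 of the genes named here, none of which was a DEG. Its range over those fits was -0.126 to 0.218 for Abcc3, -0.0234 to 0.0669 for Scamp3, -0.203 to 0.42 for Cyp3a23/3a1 and -0.191 to 0.375 for the other entry, CYP3A23/3A1. The cause was not tested.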

Other observations

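Zbtb16 and Tdo2 are known to respond to glucocorticoids, and a list of such genes was drawn up after they were seen among the DEGs, so it is a description only. Of 18 members tested, 6 were lower in THI + CTD than in THI + IMZ at an unadjusted p under 0.05 and 0 were higher, beside 5.17% and 4.95% of all genes, and 12 had a negative log2-fold change (median -0.182). The 2 DEGs that prompted the list are among the 6.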
